A study of Homo sapiens with 6 samples.

Results

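The enzymes that build fatty acids from citrate, together with their transcriptional activator, were examined in HepG2, a human hepatoma cell line. The set was chosen by gene name, with earlier results of these data known. It holds 10 of the 20030 genes of the count table: SREBF1, ACLY, ME1, ACACA, ACACB, FASN, ELOVL6, SCD, FADS1 and FADS2. HepG2 cells of 2 kinds were compared by poly(A) RNA sequencing, with 3 libraries each: cells with a control hairpin (sh-ctrl) and cells with a hairpin against KIF11 (sh-KIF11), a kinesin motor that separates the spindle poles in mitosis. Both hairpins were delivered by lentivirus in the pLKO.1 vector and the cells were selected with puromycin. Only 1 hairpin sequence against KIF11 is listed for these cells, in 1 cell line, and the sources used here do not say whether the 3 libraries of a group came from separate cultures. The p-values therefore measure the spread between these libraries, which may be technical.

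De novo fatty acid synthesis turns surplus citrate into fat, and the liver is one of its main sites. ATP citrate lyase (ACLY) cuts cytosolic citrate to acetyl-CoA, acetyl-CoA carboxylase (ACACA and ACACB) makes malonyl-CoA, and fatty acid synthase (FASN) condenses these units to palmitate with NADPH, part of which comes from malic enzyme (ME1). ELOVL6 lengthens palmitate to stearate, SCD places the first double bond to give oleate and palmitoleate, and FADS1 and FADS2 add the double bonds of the polyunsaturated fatty acids. SREBF1 encodes SREBP-1, a membrane-bound precursor whose released part enters the nucleus and switches on most of these genes, its own included. The related factor SREBP-2, from SREBF2, mainly serves cholesterol synthesis.

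Promoters of members are shown because SREBP-1 is known to act beside the factors NF-Y and SP1, which bind the CCAAT box and the GC box. RefSeq promoters (GRCh38.p14, 250 bases before to 50 after each start) were at hand for 9 of the 10 members, 14 promoters in all. FASN is the member without one. The 9 include ME1, which had too few counts to be tested, so they are not the 9 tested members. The CCAAT box, searched as CCAAT on both strands, occurred in 7 of these 14 promoters, in 5 of 9 members (ACACA, ACACB, ACLY, FADS2 and SCD), and in 34.6% of all 35116 promoters. The GC box, searched as GGGCGG on both strands, occurred in 11 of 14 promoters, in 9 of 9 members, and in 45.0% of all promoters. The percentages count promoters, so they do not compare with the counts of members, some of which have more than 1 promoter. The 2 ACLY promoters overlap and hold the same 2 CCAAT boxes. The 14 promoters held 45.3% to 82.3% G and C, against a median of 58.7% over all promoters, and the shares were not adjusted for this. An SREBP element written as TCACNCCAC and an E-box written as CACGTG, searched in the same way, were found in 0 of the 14, against 1.13% and 7.26% of all promoters. Elements with other letters or outside these windows were not searched for, so the 0 does not show that these genes lack them. In the windows printed here no match overlapped another. The 250 bases before the start are printed 5′ to 3′ on the strand of the gene for SCD (chr10:100346983-100347232, plus strand), which fell most, for SREBF1 (chr17:17836987-17837236, minus strand), for ACLY (chr17:41919023-41919272, minus strand) and for ELOVL6 (chr4:110198616-110198865, minus strand), which fell least of the members whose groups did not overlap in level, with CCAAT and GC boxes of either strand in capitals.
SCD: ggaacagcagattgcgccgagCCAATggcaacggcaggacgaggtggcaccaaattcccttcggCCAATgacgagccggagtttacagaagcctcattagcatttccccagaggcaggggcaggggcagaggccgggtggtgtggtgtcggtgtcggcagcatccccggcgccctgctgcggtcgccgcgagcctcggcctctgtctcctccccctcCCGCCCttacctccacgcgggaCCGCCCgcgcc
SREBF1: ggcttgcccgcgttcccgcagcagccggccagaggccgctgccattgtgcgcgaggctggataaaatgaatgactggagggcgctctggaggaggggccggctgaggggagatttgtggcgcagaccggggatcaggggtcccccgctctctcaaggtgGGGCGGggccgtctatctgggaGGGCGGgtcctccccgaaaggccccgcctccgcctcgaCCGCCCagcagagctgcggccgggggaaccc
ACLY: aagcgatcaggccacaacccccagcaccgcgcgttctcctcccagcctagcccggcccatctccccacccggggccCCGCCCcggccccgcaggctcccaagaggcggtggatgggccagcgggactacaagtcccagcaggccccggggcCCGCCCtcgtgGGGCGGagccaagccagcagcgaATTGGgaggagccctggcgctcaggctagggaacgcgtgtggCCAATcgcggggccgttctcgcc
ELOVL6: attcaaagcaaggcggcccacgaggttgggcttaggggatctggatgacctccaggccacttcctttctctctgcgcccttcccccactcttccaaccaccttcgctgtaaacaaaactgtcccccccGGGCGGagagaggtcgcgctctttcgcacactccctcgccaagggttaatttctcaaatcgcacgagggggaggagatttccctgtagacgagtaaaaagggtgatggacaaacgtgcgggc
SCD holds 2 CCAAT boxes, 229 and 186 bases before the start, and 2 GC boxes close to it. ACLY has 2 CCAAT boxes, 65 and 23 bases before the start, and 3 GC boxes. SREBF1 has 3 GC boxes and 0 CCAAT boxes in this window, and ELOVL6 has 1 GC box and 0 CCAAT boxes. A match describes the letters of the window and shows neither a bound site nor a cause of any change.

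The libraries were alike in depth, with between 18167773 and 19583282 counts. KIF11 itself had 1976, 2088 and 2039 counts in sh-ctrl against 1448, 1478 and 1240 counts in sh-KIF11, a fall to 59.5% of the control level (log2 fold change -0.75, SE 0.0573, edgeR adjusted p = 4.22e-15). Of the 12369 genes tested with edgeR's quasi-likelihood test, 8548 passed an adjusted p of 0.05 (69.1%). After knockdown 4254 were higher (34.4%) and 4294 lower (34.7%). This split depended on scaling: with library totals in place of TMM factors (0.922 to 0.926 in sh-ctrl, 1.08 to 1.09 in sh-KIF11) the middle of all fold changes (their median, log2) rose from 0.00 to 0.24, and 6621 genes were called higher and 2373 lower. All 10 hepatocyte markers were detected, so the libraries carry the signature of the labelled cells, but these markers moved as well: 9 of 10 were lower, with a median of -1.10 on the log2 scale, and their summed level was 32289 to 33851 CPM (normalized counts, scaled to a fixed library size) in sh-ctrl and 14436 to 15578 in sh-KIF11. The part of this change in the results below was not tested, and in bulk RNA fewer cells of a type cannot be told apart from less RNA per cell. Of 5 fibroblast and stellate markers only PDGFRB had enough counts to be tested, DCN had 0 in every library, and their summed level was 2.55 to 3.88 CPM in sh-ctrl against 1.40 to 1.89. The 4 endothelial markers summed to 3.16 to 3.56 CPM against 4.69 to 4.98, and the 4 adipocyte markers, with LEP at 0 in every library, to 6.78 to 7.31 CPM against 5.63 to 8.11. The 4 leukocyte markers summed to 2480 to 2977 CPM against 505 to 636, nearly all of it lysozyme (LYZ, 2613 ± 260 against 511 ± 73.2 CPM), while PTPRC, which defines these cells, had at most 1 count.

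All 9 members with enough counts to be tested fell in sh-KIF11, and 0 rose. Their log2 fold changes ran from -1.49 (SCD) to -0.26 (ACACB) with a median of -0.81, against a median of 0.00 over all tested genes, of which 34.7% were called lower. SCD, SREBF1 and FADS2 fell at least 2-fold, as did 3.52% of all tested genes. In 8 of the 9, every sh-KIF11 library lay below every sh-ctrl library, as in 35.8% of all tested genes, and the exception was ACACB. Together the 10 genes took 0.645%, 0.644% and 0.594% of the counts of the 3 control libraries, against 0.340%, 0.332% and 0.314% after knockdown. Such a share scales by the library total in place of TMM factors. That scaling moved the median over all tested genes to 0.24 on the log2 scale. Levels below are TMM-normalized CPM unless another unit is named, and for a single gene the two-sided exact permutation test of 3 against 3 libraries cannot give a p below 0.1, the value reached by each of the 8 non-overlapping members.

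**Figure D1:**
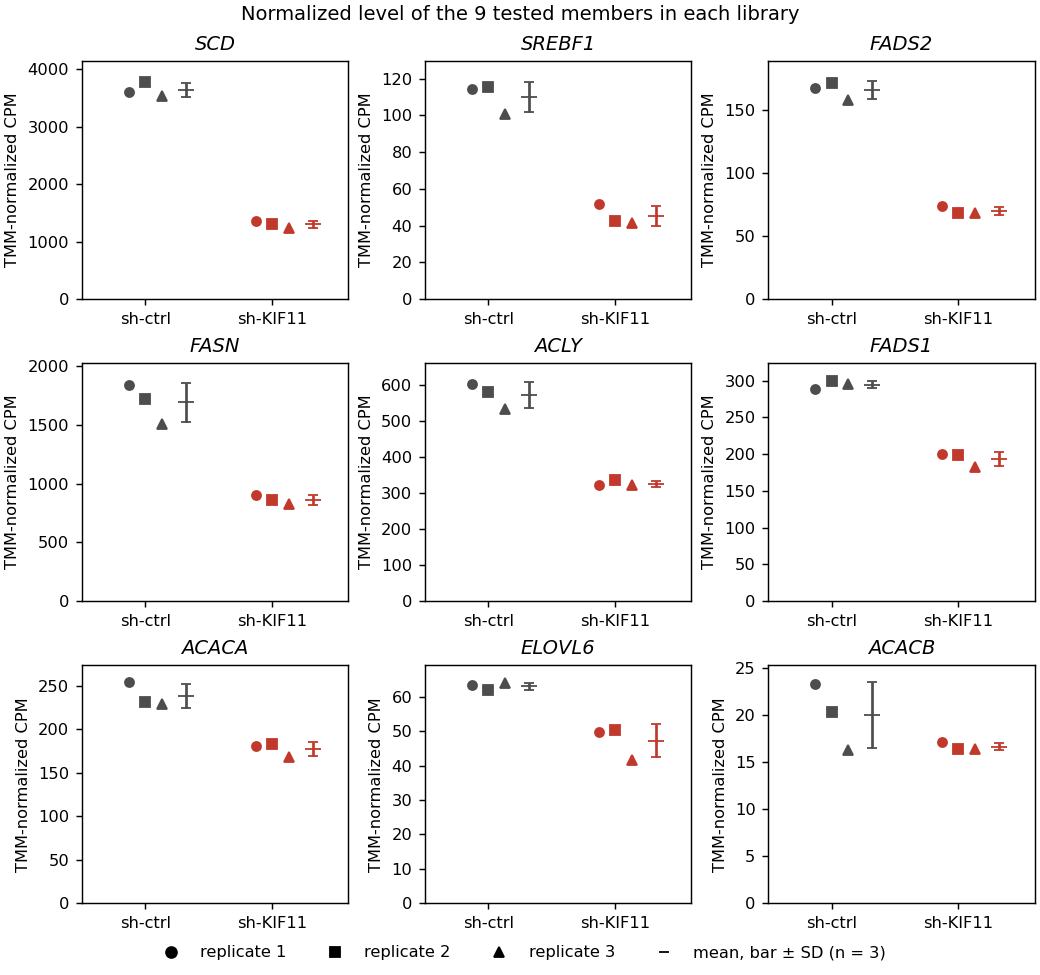
TMM-normalized CPM of the 9 tested members in each of the 3 sh-ctrl (grey) and 3 sh-KIF11 (red) libraries, one panel per gene with its own linear axis from 0, with symbols for the replicates and bars for the mean ± SD (n = 3). The groups are apart in 8 panels, and in ACACB the third sh-ctrl library lies at the level of the sh-KIF11 libraries.

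SREBF1, the activator, is on chromosome 17 (chr17:17810399-17837002, minus strand, GRCh38 with GENCODE 29). Its level was 114.5, 115.3 and 100.7 CPM in sh-ctrl and 51.68, 42.56 and 41.48 CPM in sh-KIF11. The highest knockdown library stayed far below the lowest control library. This was a fall from 110 ± 8.21 to 45.2 ± 5.61 CPM (SD, n = 3), or to 41.1% of control (log2 fold change -1.28, SE 0.0668, edgeR adjusted p = 1.65e-20), and 216 of the 12369 tested genes had a lower fold change. The 3′ end of SREBF1 shares 556 exonic bases (6.92% of its exonic length) with RAI1 on the opposite strand. The kit marks strand, but whether the counting used it is not given in the sources used here, so a small part of the SREBF1 counts could belong to RAI1.

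ACLY, which makes the cytosolic acetyl-CoA, lies at chr17:41866908-41930542 on the minus strand. It measured 602.7, 580.3 and 532 CPM in sh-ctrl and 320.5, 334.8 and 320.8 CPM in sh-KIF11. The 3 knockdown libraries were nearly equal and all below the controls. The mean fell from 572 ± 36.1 to 325 ± 8.17 CPM, to 56.9% of control (log2 fold change -0.81, SE 0.05004, edgeR adjusted p = 4.56e-18). ME1, the cytosolic malic enzyme (chr6:83210389-83431071, minus strand), was barely detected, with 2, 4 and 1 counts in sh-ctrl and 1 count in each sh-KIF11 library. These values are at the limit that 3 counts set here (0.145 to 0.178 CPM), so a change of ME1 was not detectable at this depth and no fold is given.

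The carboxylase step, where carbon is committed to fat, changed less. ACACA encodes the cytosolic form that feeds FASN (chr17:37084988-37406818, minus strand). It measured 253.8, 231.5 and 228.7 CPM in sh-ctrl and 181, 182.9 and 168.5 CPM in sh-KIF11. The groups stood apart by a narrower margin than for SREBF1 or ACLY, and the mean went from 238 ± 13.7 to 177 ± 7.79 CPM, to 74.6% of control (log2 fold change -0.42, SE 0.0515, edgeR adjusted p = 1.66e-09). ACACB encodes the form at the mitochondrial surface, whose malonyl-CoA restrains fatty acid import by CPT1 (chr12:109116595-109268226, plus strand). It was far less abundant, with 416, 367 and 275 counts in sh-ctrl against 344, 340 and 324 counts in sh-KIF11. In CPM these were 23.32, 20.34 and 16.29 against 17.14, 16.43 and 16.43, so that the third control library lay below all 3 knockdown libraries. The log2 fold change of -0.26 (SE 0.0979, edgeR adjusted p = 0.0159) is the weakest call of the set. It was -0.13 with an edgeR adjusted p of 0.253 without the first sh-ctrl library and -0.25 with 0.0511 without the second, and over the 15 alternatives its adjusted p ran from 0.000279 to 0.766. ACACA and ACACB counts stood in a ratio of 10.9, 11.4 and 14.0 in sh-ctrl against 10.6, 11.1 and 10.3 in sh-KIF11. These ranges overlap and the ratio was not shown to differ (two-sided exact permutation p = 0.2), and without the third sh-ctrl library the difference was -0.06 on the log2 scale.

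FASN, the multi-domain synthase that releases palmitate, lies at chr17:82078333-82098332 on the minus strand. Its counts were large, 32840, 31123 and 25522 in sh-ctrl against 18159, 17744 and 16245 in sh-KIF11. In CPM these were 1841, 1725 and 1512 against 905, 857.2 and 823.7. Each group spanned a modest range and the gap between them was wider than either range. The mean went from 1693 ± 167 to 862 ± 40.9 CPM, to 50.9% of control (log2 fold change -0.97, SE 0.0548, edgeR adjusted p = 2.28e-19). By FPKM, the deposited level per transcript length, FASN ranked 327th, 352nd and 398th of all genes in the control libraries, and 523rd, 552nd and 593rd after knockdown.

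ELOVL6, the elongase from palmitate to stearate (chr4:110045846-110199199, minus strand), changed about as much as ACACA. It had the tightest controls of the set, 63.41, 62 and 64.05 CPM, and 49.84, 50.34 and 41.68 CPM in sh-KIF11. The third knockdown library was the low one, and even the highest stayed below every control. The mean went from 63.2 ± 1.05 to 47.3 ± 4.86 CPM, to 74.9% of control (log2 fold change -0.42, SE 0.0677, edgeR adjusted p = 8.43e-07). ELOVL5, the elongase of polyunsaturated fatty acids, moved the other way, from 156 ± 10.6 to 196 ± 3.64 CPM (log2 fold change 0.33, edgeR adjusted p = 3.39e-07). The count ratio of ELOVL6 to ELOVL5 was 0.433, 0.404 and 0.383 in sh-ctrl against 0.249, 0.256 and 0.216 in sh-KIF11, a log2 difference of -0.76 with no overlap.

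SCD, the stearoyl-CoA desaturase (chr10:100347124-100364834, plus strand), showed the deepest fall of the set. It had 64339, 68255 and 59715 counts in sh-ctrl against 27159, 27172 and 24298 counts in sh-KIF11. In CPM these were 3607, 3782 and 3538 against 1354, 1313 and 1232, and the libraries of each group lay close together. The mean fell from 3643 ± 126 to 1299 ± 61.9 CPM, to 35.7% of control (log2 fold change -1.49, SE 0.0499, edgeR adjusted p = 4.29e-27), and 144 tested genes had a lower fold change. SCD was the most abundant member, 75th, 73rd and 75th of all genes by FPKM in sh-ctrl and 138th, 138th and 150th in sh-KIF11. It held 51.8%, 54.1% and 54.9% of all counts of the 10 genes in sh-ctrl against 42.9%, 42.9% and 42.6% in sh-KIF11. The processed pseudogene SCDP1 on chromosome 17 is not in the count table. How reads that align to both SCDP1 and SCD were handled in the counting was not examined.

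FADS1 and FADS2, the delta-5 and delta-6 desaturases, lie on opposite strands of chromosome 11 (chr11:61799625-61829318, minus strand, and chr11:61792980-61867354, plus strand). In this annotation FADS1 lies inside the span of FADS2. FADS1 measured 289.1, 298.9 and 295.8 CPM in sh-ctrl and 199.8, 198.3 and 182.4 CPM in sh-KIF11. It fell to 65.7% of control (295 ± 5.002 to 193 ± 9.63 CPM, log2 fold change -0.61, SE 0.0495, edgeR adjusted p = 3.21e-14). FADS2 measured 167.3, 171.6 and 157.7 CPM in sh-ctrl and 73.51, 67.97 and 68.04 CPM in sh-KIF11. Its fall was deeper, to 42.2% of control (166 ± 7.11 to 69.8 ± 3.18 CPM, log2 fold change -1.25, SE 0.0539, edgeR adjusted p = 3.06e-23). The count ratio of FADS1 to FADS2 within a library went from 1.73, 1.74 and 1.88 in sh-ctrl to 2.72, 2.92 and 2.68 in sh-KIF11, a log2 difference of 0.64. The ratios of the groups did not overlap. The annotated exons of FADS1 and FADS2 share 490 bases (4.79% of FADS1 and 4.44% of FADS2), where reads cannot be assigned without the strand. FADS2 also shares 49 exonic bases (0.444%) with FEN1 on the same strand.

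**Figure D2:**
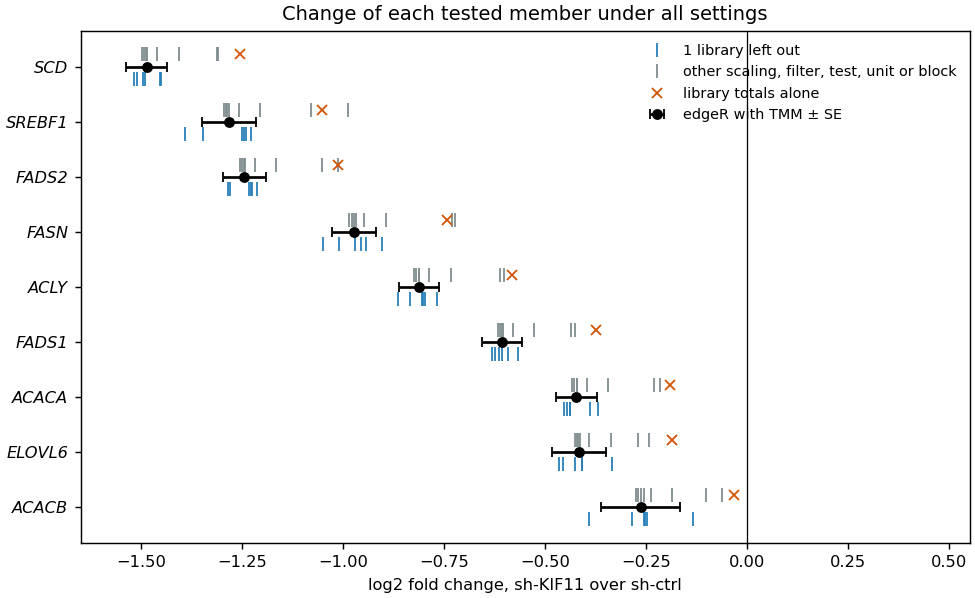
Log2 fold change (sh-KIF11 over sh-ctrl) of the 9 tested members, with points and bars for the edgeR estimate ± SE, blue ticks for the 6 fits that left out 1 library, grey ticks for the other scalings, filters, tests, units and the replicate block, and crosses for scaling by library totals alone. Every tick of every member lies below 0, and for ACACB the ticks reach -0.03.

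The size of the fall thus differed along the pathway, and ratios inside a library show this without scaling. SCD fell more than FASN: their count ratio was 1.96, 2.19 and 2.34 in sh-ctrl against 1.496, 1.531 and 1.496 in sh-KIF11 (log2 difference -0.52). FASN and ACLY moved nearly in step, with ratios of 3.05, 2.97 and 2.84 in sh-ctrl against 2.82, 2.56 and 2.57 in sh-KIF11 (log2 difference -0.16), although the groups did not overlap. SREBF1 fell more than SREBF2, the gene of SREBP-2, which itself went from 331 ± 18.2 to 220 ± 8.43 CPM (log2 fold change -0.59, edgeR adjusted p = 1.26e-13). Their ratio was 0.332, 0.340 and 0.324 in sh-ctrl against 0.225, 0.194 and 0.195 in sh-KIF11 (log2 difference -0.70). Of the 6 ratios compared, 5 had groups that did not overlap, each with the smallest two-sided exact permutation p that 3 against 3 libraries allow, 0.1, or 0.12 after Benjamini-Hochberg adjustment over the 6, so none passes 0.05. All 6 kept their direction in FPKM and without any single library.

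**Figure D3:**
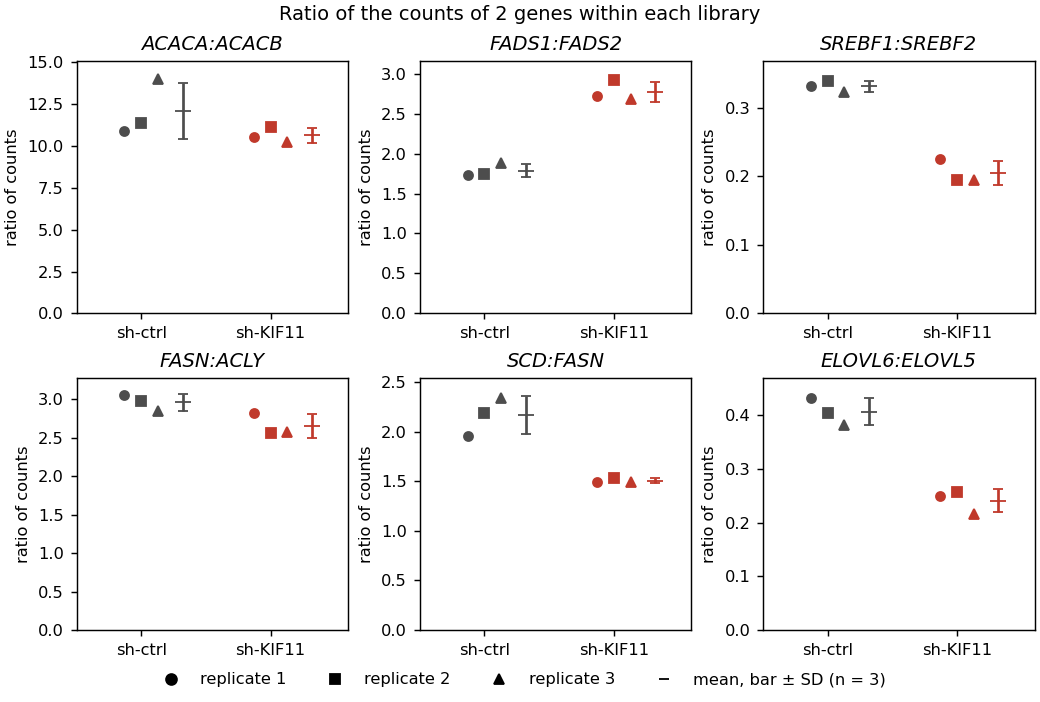
Ratio of the raw counts of 2 genes within each library for 6 pairs, one panel per pair with its own linear axis from 0, with symbols for the replicates of sh-ctrl (grey) and sh-KIF11 (red) and bars for the mean ± SD (n = 3). FADS1 to FADS2 is higher in all sh-KIF11 libraries, the ratio of ACACA to ACACB overlaps, and the other 4 are lower.

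In level per transcript length, the order of the members was almost kept. In sh-ctrl, SCD stood first with 638 ± 24.2 FPKM (SD, n = 3), ahead of FASN with 137 ± 12.5, ACLY with 74.1 ± 4.50, FADS1 with 47.0 ± 0.655 and FADS2 with 32.7 ± 1.14. SREBF1 (14.3 ± 0.831 FPKM) and ACACA (14.2 ± 0.838 FPKM) followed, and these neighbours did not differ beyond their spread. ELOVL6 (8.23 ± 0.123 FPKM), ACACB (1.15 ± 0.208 FPKM) and ME1 (0.018 FPKM) closed the order. In sh-KIF11 the first 5 kept their places, from SCD with 257 ± 10.8 FPKM to FADS2 with 15.7 ± 0.734 FPKM. SREBF1 (6.74 ± 0.766 FPKM) went from 6th to 8th place, behind ACACA (12.1 ± 0.440 FPKM) and level within the spread with ELOVL6 (6.83 ± 0.681 FPKM). Differences between groups were smaller on this scale than in CPM, and the median over all tested genes was 0.12 on the log2(FPKM + 1) scale.

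**Figure D4:**
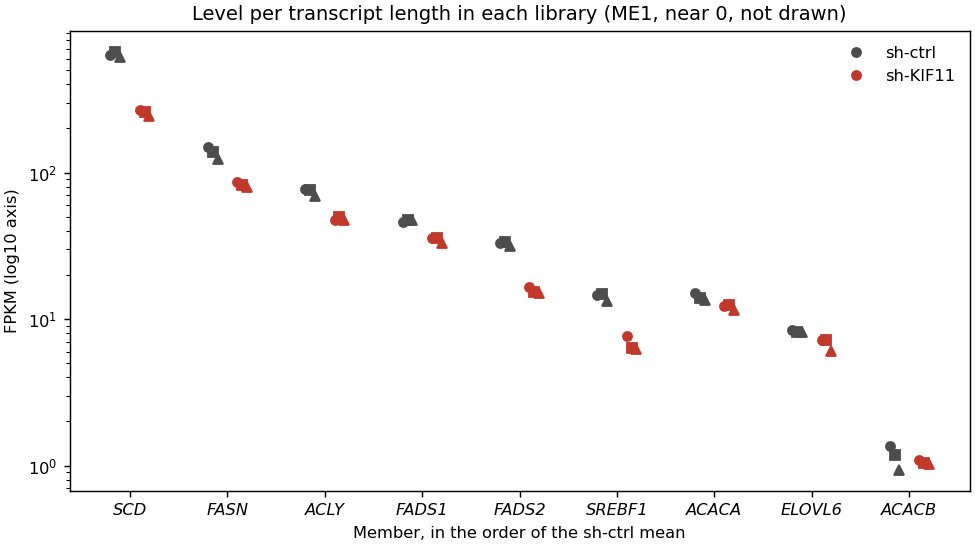
Deposited FPKM of 9 members in each sh-ctrl (grey) and sh-KIF11 (red) library on a logarithmic axis, in the order of the sh-ctrl mean, with circles, squares and triangles for replicates 1, 2 and 3. SCD leads in both groups, and SREBF1 drops from beside ACACA to beside ELOVL6.

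The libraries of a group were not spread evenly. The third sh-ctrl library had the lowest control level for 7 of the 9 tested members, and the third sh-KIF11 library the lowest knockdown level for 6 of 9. The coefficient of variation ran from 1.66% (ELOVL6) to 17.7% (ACACB) in sh-ctrl and from 2.49% (ACACB) to 12.4% (SREBF1) in sh-KIF11. Apart from ACACB, the members kept their call without each of the 6 libraries in turn.

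The hairpin against KIF11 has an antisense arm, shown because its seed, bases 2 to 8 in capitals, could pair with other transcripts.
antisense arm: aTTCTACTattgaatgggcgc
The matching 7-base site, agtagaa, occurs in an annotated 3′ UTR (GENCODE 29) of 2110 of the 12176 tested genes with such a UTR (17.3%). It occurs in 4 of the 9 tested members: ACACA with 2 sites, and SCD, ELOVL6 and FADS1 with 1 each. SREBF1, FADS2, FASN, ACLY and ACACB have 0 sites, so members with and without a site fell. The longest 3′ UTRs of the members with a site ran from 2328 bases (ACACA) to 5492 bases (ELOVL6), against a median of 1585 bases over the tested genes. Over all tested genes the median log2 fold change was 0.16 with a site and -0.03 without. The start of the guide strand was taken as the first base of the arm, and the part of seed pairing in any member's change was not tested.

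Around the members, 6 lists of pathway genes held 87 genes, of which 80 were tested, 45 fell, 19 rose and 16 did not pass, with a median log2 fold change of -0.22. Over all tested genes 34.7% were called lower and 34.4% higher, and no list was tested against these shares. Among the transcriptional regulators of lipogenesis 9 of 16 tested fell and 3 rose (median -0.20, which turned to 0.029 with library totals and to 0.0157 and 0.0164 in log2 FPKM). The retinoid receptor RXRA, the partner of the liver X receptors, went from 105 ± 4.44 to 49.4 ± 2.11 CPM (log2 fold change -1.09, edgeR adjusted p = 2.76e-20). INSIG2, which holds the SREBP precursors in the endoplasmic reticulum, fell by 0.62 on the log2 scale (edgeR adjusted p = 6.6e-10). The coactivator PPARGC1B had 21, 43 and 14 counts in sh-ctrl against 49, 45 and 48 in sh-KIF11, and its log2 fold change of 0.67 (edgeR adjusted p = 0.0327) did not pass in 4 of the 6 fits that left out 1 library. INSIG1, named here after its values were seen, had 5, 1 and 0 counts in sh-ctrl against 0 in each sh-KIF11 library, and was not tested.

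Genes that supply citrate, acetyl-CoA and NADPH mostly fell with the members, 13 of 16 tested, while 1 (ME2) rose. Over all tested genes 34.7% were lower and 34.4% higher. The median of the list was -0.38, and -0.15 with library totals. IDH1, a cytosolic source of NADPH, went from 951 ± 61.2 to 487 ± 8.80 CPM (log2 fold change -0.96, edgeR adjusted p = 1.17e-20). The mitochondrial citrate carrier SLC25A1 fell by 0.94 on the log2 scale (edgeR adjusted p = 5.16e-20), and ACSS2, which makes acetyl-CoA from acetate, went from 104 ± 6.78 to 57.8 ± 0.503 CPM (edgeR adjusted p = 1.06e-16). The other malic enzymes did not share the pattern of a fall, since mitochondrial ME2 rose by 0.28 on the log2 scale (edgeR adjusted p = 0.000439) and ME3 had 0, 4 and 1 counts in sh-ctrl against 11, 12 and 9 in sh-KIF11, too few to be tested. ME2 and ME3 were picked out after their values were seen.

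Of the genes that control acetyl-CoA carboxylase, 4 of 9 tested were higher and 2 lower (median 0.16), near the shares over all tested genes (34.4% and 34.7%). PRKAA2 and PRKAA1, the catalytic subunits of AMP-activated protein kinase, which phosphorylates and inhibits the carboxylases, rose from 28.5 ± 1.05 to 50.8 ± 2.17 CPM and from 51.6 ± 4.11 to 74.7 ± 1.84 CPM (log2 fold changes 0.83 and 0.54, edgeR adjusted p = 1.94e-13 and 6.48e-10). STK11, the kinase LKB1 that activates it, fell by 0.59 on the log2 scale (edgeR adjusted p = 1.48e-12). PRKAG2, named after its values were seen, had the highest fold change of the list (1.45) on 9, 11 and 6 counts against 29, 27 and 26.

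Of the other elongation and desaturation enzymes, 8 of 14 tested fell and 3 rose, beside 34.7% and 34.4% of all tested genes. The median of the list was -0.38, and -0.15 with library totals. CYB5A, the cytochrome b5 that passes electrons to the desaturases, went from 144 ± 13.1 to 63.1 ± 0.453 CPM (log2 fold change -1.19, edgeR adjusted p = 1.34e-21). TECR, the last enzyme of the elongation cycle, fell by 0.71 on the log2 scale (edgeR adjusted p = 4.69e-12). FADS3, the third gene of the FADS cluster, rose from 9.083, 7.591 and 7.288 CPM in sh-ctrl to 20.04, 18.70 and 17.70 CPM in sh-KIF11 (log2 fold change 1.23, edgeR adjusted p = 1.55e-13), against the direction of FADS1 and FADS2.

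Acyl-CoA synthetases and enzymes of triglyceride synthesis were divided, with 8 of 18 lower and 7 higher (median -0.08, which turned to 0.15 with library totals and to 0.12 and 0.13 in log2 FPKM). Over all tested genes the shares were 34.7% lower and 34.4% higher, near those of this list. ACSL3, which activates fatty acids at lipid droplets, fell by 0.86 on the log2 scale (edgeR adjusted p = 5.61e-18). The glycerol-3-phosphate acyltransferase GPAT3 rose from 10.9 ± 2.08 to 25.1 ± 3.14 CPM and the phosphatidate phosphatase LPIN3 from 26.8 ± 1.69 to 46.1 ± 3.96 CPM (log2 fold changes 1.20 and 0.78, edgeR adjusted p = 4.01e-13 and 7.94e-12). In mitochondrial fatty acid synthesis, a separate route that makes the precursor of lipoic acid, 5 of 7 fell and 1 rose (median -0.24, and -0.011 with library totals). Its acyl carrier NDUFAB1 fell by 0.59 and HSD17B8 by 0.45 on the log2 scale, while CBR4 rose by 0.34 (edgeR adjusted p = 1.07e-13, 0.000163 and 0.00032). With library totals the split over the 6 lists was 32 higher and 30 lower in place of 19 and 45. All 9 members kept a negative fold change, but ACACB, at -0.03 on the log2 scale, lost its call (edgeR adjusted p = 0.766).

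**Figure D5:**
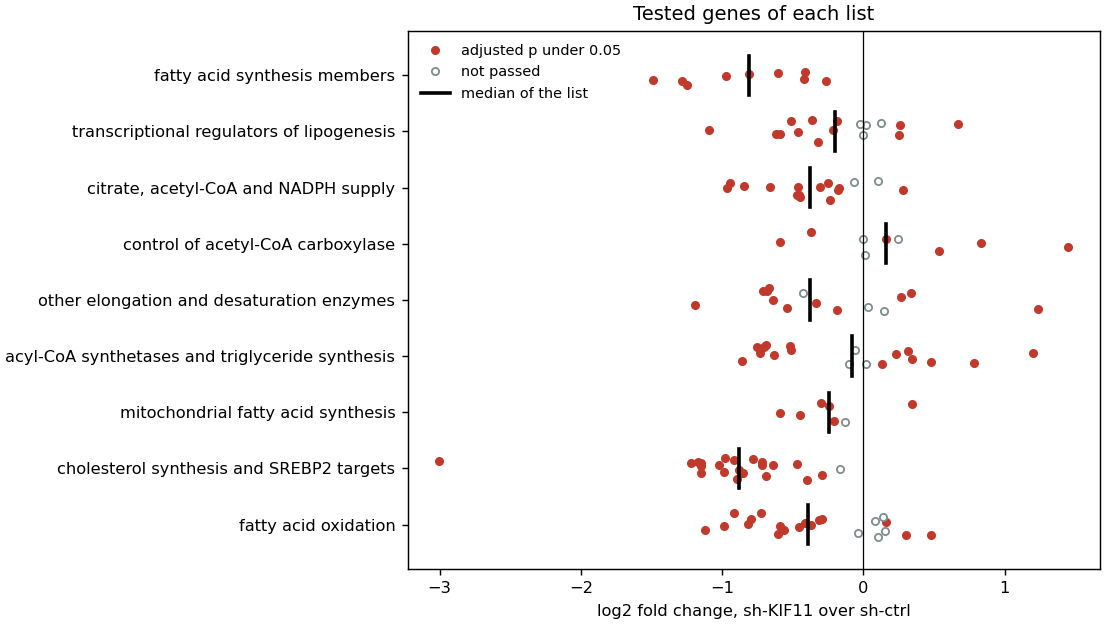
Log2 fold change (sh-KIF11 over sh-ctrl) of each tested gene in the fatty acid synthesis set, the 6 pathway lists and 2 lists for comparison, with filled points for an edgeR adjusted p under 0.05, open points for the rest and black lines for the median of each list. The fatty acid synthesis set (median -0.81) and the cholesterol list (median -0.88) hold no point above 0, and the other lists hold points on both sides.

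For comparison, cholesterol synthesis genes and other SREBP-2 targets fell to a similar extent: 22 of 23 were lower, 0 higher, and the median log2 fold change was -0.88, next to -0.81 for the fatty acid set. Over all tested genes 34.7% were lower and 34.4% higher. EBP and MVD, enzymes of sterol and isoprenoid synthesis, fell by 1.22 and 1.17 on the log2 scale (edgeR adjusted p = 6.37e-22 and 3.34e-22). The exception was PMVK with -0.16 (edgeR adjusted p = 0.0687). Genes of fatty acid oxidation, the opposing route, also leaned lower, with 14 of 22 tested lower and 3 higher (median -0.39, and -0.16 with library totals). ETFB and ACADS, of the mitochondrial pathway, and PPARA, its nuclear receptor, fell by 1.12, 0.98 and 0.92 on the log2 scale (edgeR adjusted p = 2.8e-23, 1.36e-15 and 9.74e-15). Differences between these lists and the fatty acid set were not tested.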

How the data were processed

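Libraries were made with a stranded poly(A) kit and sequenced on an Illumina HiSeq instrument in paired-end mode. The authors deposited a table of raw counts per gene and a table of FPKM, already divided by transcript length and depth. The submitters' processing notes list GRCh38, bcl2fastq 1.8.4, Trimmomatic, HISAT2 2.1.0, Cufflinks 2.2.1, HTSeq 0.9.1 and DESeq, and the strand setting of the counting is not given in the sources used here. Groups and replicate numbers came from the sample labels. In the tables, the knockdown columns are named only shRNA and were taken as sh-KIF11, the one other hairpin in the labels.

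The test of the counts used edgeR 4.0.16 in R 4.3.3 (TMM, filterByExpr, quasi-likelihood test, group as the only term), with limma 3.58.1 and DESeq2 1.42.0 as alternatives. The filter kept 12369 genes and left out 7661. Benjamini-Hochberg adjustment ran over all tested genes, and a gene was called at an adjusted p under 0.05. Of the 2 tables, the counts gave the tests, and FPKM gave the order of levels and an alternative on log2(FPKM + 1) or log2(FPKM + 0.1). Fits were checked on simulated data in which few genes changed, equally up and down. That check does not cover the dependence on scaling seen here. A level of 3 counts was taken as the detection limit, which covers counting error only. The members and the gene lists were chosen with earlier results of these data known. In each list, up to 3 genes with the largest absolute fold change were named among those with an adjusted p under 0.05 and a mean of at least 1 CPM. The genes of the 6 ratios were named as well, and others are marked where they appear. Some genes that the rule names are not reported here.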

Additional observations from a re-analysis of the deposited data

How the results depend on the processing

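KIF11, the members, the genes named by rule, the counts and medians of the pathway and comparison lists and the number of calls were recomputed with RLE, upper-quartile or no composition scaling, other filters, DESeq2, limma on log2 FPKM, a replicate block and without each library. The 6 ratios were recomputed in FPKM and without each library, and the marker lists and the genes picked out after their values were seen were not recomputed. SREBF1, FASN, ACACA, ACLY, SCD, ELOVL6, FADS1 and FADS2 kept their direction and call in 15 of 15 alternatives, and their smallest change in size was with library totals or log2 FPKM (SCD -1.26, ACACA and ELOVL6 -0.19). ACACB lost its call in 7: the upper-quartile (log2 fold change -0.19, edgeR adjusted p = 0.0882), library totals (-0.03, 0.766), DESeq2 (-0.27, 0.0603), limma on log2(FPKM + 1) (-0.06, 0.532) and on log2(FPKM + 0.1) (-0.10, 0.579), and without sh-ctrl replicate 1 or 2, where its values without single libraries ran from -0.39 to -0.13. PPARGC1B lost its call in 7 alternatives and HSD17B8 in 2. These scalings moved the median of all tested genes to 0.24 (library totals), 0.08 (upper-quartile), 0.12 (log2(FPKM + 1)) and 0.17 (log2(FPKM + 0.1)), with 6621 genes higher and 2373 lower, 5014 and 3563, 5788 and 2489, and 5849 and 2505. The genes called higher over the 6 pathway lists then numbered 32 with library totals, 30 with log2(FPKM + 1) and 31 with log2(FPKM + 0.1), against 19. The median of the regulators turned to 0.029, 0.0157 and 0.0164 in that order, and that of the acyl-CoA and triglyceride list to 0.15, 0.12 and 0.13. With library totals the median of the members was -0.58, of the supply list -0.15 and of the elongation and desaturation list -0.15. The medians of the mitochondrial and carboxylase control lists were then -0.011 and 0.39. Those of the cholesterol and oxidation lists were -0.65 and -0.16.

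Libraries with the same replicate number did not deviate together (correlations of 0.03, -0.02 and 0.00 over 12369 genes, and 1 of 3 numbers matched best with itself). These correlations cannot tell whether such libraries shared a culture or a preparation. The fit with a replicate block called 8607 genes, against 8548 without it. Leaving out 1 library gave between 7975 and 8749 calls. ME1 had at most 4 counts, too few to be tested.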
